A study of Homo sapiens with 9 samples.

Results

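The genes described here are the clustered histone genes, which encode the linker histone H1 and the core histones H2A, H2B, H3 and H4 and lie in groups of neighbouring genes on a few chromosomes. They were selected on 2 values: a gene symbol that begins with HIST1H, HIST2H, HIST3H or HIST4H, and a level above 0 in at least 3 of 9 RNA-seq libraries. The level is the FPKM, the number of fragments scaled by the length of the transcript and the size of the library. Of 18143 genes listed, 65 had such a symbol and 60 met the rule. These are 4 H1, 14 H2A, 16 H2B, 14 H3 and 12 H4 genes. The HIST1 cluster holds 45 of them, between 26020490 and 27893843 on chromosome 6 of the human genome build GRCh38 (GENCODE release 29), with 12 genes of HIST2 and 2 of HIST3 on chromosome 1 and 1 of HIST4 on chromosome 12.

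Clustered histone genes are switched on as cells enter S phase, when new DNA has to be packed into nucleosomes, and their transcripts are known to disappear when replication ends. Most of these transcripts do not end in a poly(A) tail but in a short stem-loop, which is bound by the protein SLBP and cut free by a complex that holds the U7 small nuclear ribonucleoprotein. NPAT and CASP8AP2 (FLASH) act at the genes themselves, and the exonuclease ERI1 trims and degrades the stem-loop end. Some of the genes can also give a longer transcript with a poly(A) tail, a form known from cells that have left the cycle or differentiated.

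The cells were A549, a line grown from an adenocarcinoma of the human lung. They received a scramble siRNA, SiREV1#1 or SiREV1#2, both of which target the translesion DNA polymerase REV1, and RNA was taken 48 h later from 3 replicates of each group. All libraries came from this 1 line, grown in the same medium and transfected with Lipofectamine RNAiMAX, the scramble cells included, and were made from RNA bound to oligo(dT) beads, a step that retains RNA with a poly(A) tail. A knockdown of this kind is transient, no synchronisation of the cell cycle is stated, and the labels do not say what a replicate is. The study's methods speak of independent repeats for its cell experiments as a whole without naming the RNA-seq libraries, so p-values measure the spread between these libraries, part of which may be technical. In such bulk RNA, fewer cells in S phase and less histone RNA per cell cannot be told apart. A smaller share of histone RNA retained on the beads cannot be told apart from either. The histone levels given here are those of the retained RNA. The epithelial keratins KRT8 and KRT18 were between 1371.89 and 5601.72 FPKM in these libraries and CDH1 between 6.32 and 43.79 FPKM. EPCAM, also epithelial, was lower (0.73 to 2.38 FPKM), the lung markers NKX2-1 and SFTPC stayed at or under 0.26 and 0.4 FPKM, and PTPRC of leukocytes and COL1A1 of fibroblasts at or under 0.47 and 1.57 FPKM.

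The stem-loop that ends the mature histone transcripts could be read from the reference for part of the genes. In GENCODE release 29, 32 of the 60 genes have a transcript with at least 50 annotated bases after the stop codon. The histone stem-loop motif was found within 100 bases of the stop codon in 28 of these (87.5%), against 0.167% of 19203 genes with such a stretch. That share includes the histone genes themselves, and only 2 of the genes with the motif were not clustered histone genes. The sequences of 8 of the more abundant genes are printed here so that the forms can be compared. The 16 bases of the stem-loop are in capitals, written 5′ to 3′ as in the gene, with 5 flanking bases on each side.
HIST1H2AC: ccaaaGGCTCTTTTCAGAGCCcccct
HIST2H2AA3: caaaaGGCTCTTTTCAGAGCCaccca
HIST2H2BE: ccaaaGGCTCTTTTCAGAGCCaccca
HIST1H2BD: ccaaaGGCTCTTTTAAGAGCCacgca
HIST1H2BC: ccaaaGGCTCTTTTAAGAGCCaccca
HIST1H3E: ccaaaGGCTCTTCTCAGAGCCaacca
HIST1H4H: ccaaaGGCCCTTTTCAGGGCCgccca
HIST2H4A: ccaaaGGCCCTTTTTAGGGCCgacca

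In these coordinates the stem-loop of HIST1H2AC is at chr6:26124669-26124684 (plus strand), that of HIST1H2BD at chr6:26158587-26158602 (plus strand), that of HIST1H4H at chr6:26285131-26285146 (minus strand) and that of HIST2H4A at chr1:149833032-149833047 (plus strand). Among the 28 genes there were 6 distinct stem-loops. The form of HIST1H2AC was shared by 15 genes of H2A, H2B and H3, and the form of HIST1H2BD by 4 genes, 3 of H2B and 1 of H3. The forms of HIST1H4H and HIST2H4A were found in H4 genes, in 4 and in 3 of them. An annotated coding transcript ran more than 100 bases past the stem-loop in 22 genes. That of HIST1H2AC ran 1114 bases past it and that of HIST2H2BE 1729 bases, whereas that of HIST2H2AA3 ended after 35. HIST1H3E had both kinds, a coding transcript that ended 5 bases past the stem-loop and another that ran 1862 bases past it.

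The length that the deposited values assume for each gene could be worked out from the ratio of count to FPKM. It was 816 bases for HIST1H2BK (806 to 819 over 8 libraries), whose coding sequence has 381 bases. It was 791 bases for HIST1H2BD and 2226 bases for HIST2H2BE, with the same coding length, so the gene models used for these genes hold long stretches outside the coding sequence. For HIST1H2AC it was 519 bases and for HIST1H4H 344, against coding lengths of 393 and 312. Such lengths could be derived for 46 genes, and in 5 of them the length was more than 1.5 times the coding length.

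Promoter sequence (250 bases before to 50 after the start, RefSeq, build GRCh38.p14) was found for 55 of the 60 genes. Both strands were searched for ATTTGCAT, the octamer bound by POU2F1, which was in 12 of 16 H2B promoters, 8 of 13 H2A promoters, 1 of 12 H3 promoters and none of 4 H1 or 10 H4 promoters, against 2.19% of the promoters of 27305 genes. The H1 element AAACACA was in 4 of 4 H1 promoters and in 6.94% of all. The box CCAAT was in all 45 promoters of H1, H2A, H2B and H3 genes but in 2 of 10 H4 promoters, against 39.7% of all, and TATAA in 50 of 55, against 24.2% of all. The 3 genes with the highest levels in these libraries carried the following stretches, with the octamer or the H1 element in capitals.
HIST1H2BK: tcttcaccttATTTGCATgagaggtcct
HIST1H2AC: ttcatacctcATTTGCATagctctgccc
HIST1H1C: gaggtggaacAAACACAacttgggagc

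The stretch of HIST1H2BK is at chr6:27146887-27146914 (minus strand), that of HIST1H2AC at chr6:26124032-26124059 (minus strand, opposite to the gene) and that of HIST1H1C at chr6:26056573-26056599 (minus strand). A match is a description of letters and not evidence of binding.

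Total counts were between 13059082 and 20166451 per library, lowest in SiREV1#1 replicate 1. The count column of SiREV1#2 replicate 3 repeats that of replicate 2 and was counted once, so tests on counts hold 8 libraries and FPKM values hold 9. Replicate 1 stood apart from replicates 2 and 3 in every group, and 8792 of 14205 genes tested differed between them (edgeR's quasi-likelihood test, adjusted p under 0.05), so each result is given by replicate. REV1, the targeted gene, was 7.23, 7.90 and 8.44 FPKM in scramble replicates 1 to 3. It was 2.60, 2.92 and 3.36 FPKM after SiREV1#1 and 3.62, 3.36 and 3.18 FPKM after SiREV1#2. All 6 libraries of the siRNAs lay below all 3 scramble libraries. For edgeR values, here and below, SE and ± mark an approximate error worked back from the F test. The log2 fold change was −1.26 ± 0.17 (SE, adjusted p = 0.042) after SiREV1#1 and −1.33 ± 0.20 (adjusted p = 0.154) after SiREV1#2, and with the replicate number as a block both passed the threshold, at −1.26 ± 0.13 (adjusted p = 0.00165) and −1.26 ± 0.15 (adjusted p = 0.00989). Without the block, the call after SiREV1#1 was lost when any 1 of the 8 libraries was left out (−1.34 to −1.20, adjusted p = 0.0668 to 0.384).

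Histone levels were concentrated in a few genes. The members summed to 569.86 and 534.52 FPKM in scramble replicates 2 and 3, and HIST1H1C, HIST1H2BK and HIST1H2AC were the only members with a mean above 20 FPKM over the 9 libraries, at 90.8, 82.9 and 49.6 FPKM. In each library between 39 and 60 members were above 0 and between 15 and 36 were above 1 FPKM. Of the 60, 29 were above 0 in all 9 libraries. The members just inside the rule were HIST1H2BB and HIST1H2BI, each above 0 in 4 libraries with means of 0.0833 and 0.0878 FPKM. Just outside it were HIST1H2BG, above 0 in 2 libraries with a mean of 0.0278 FPKM, and HIST1H4J, at 1.88 FPKM in SiREV1#1 replicate 3 and 0 in the other libraries. HIST1H4K, whose sequence in the reference is shared with HIST1H4J at 100.0% of its 50-base words, was at 0 in that library alone and between 0.85 and 4.02 FPKM in the others.

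**Figure D1:**
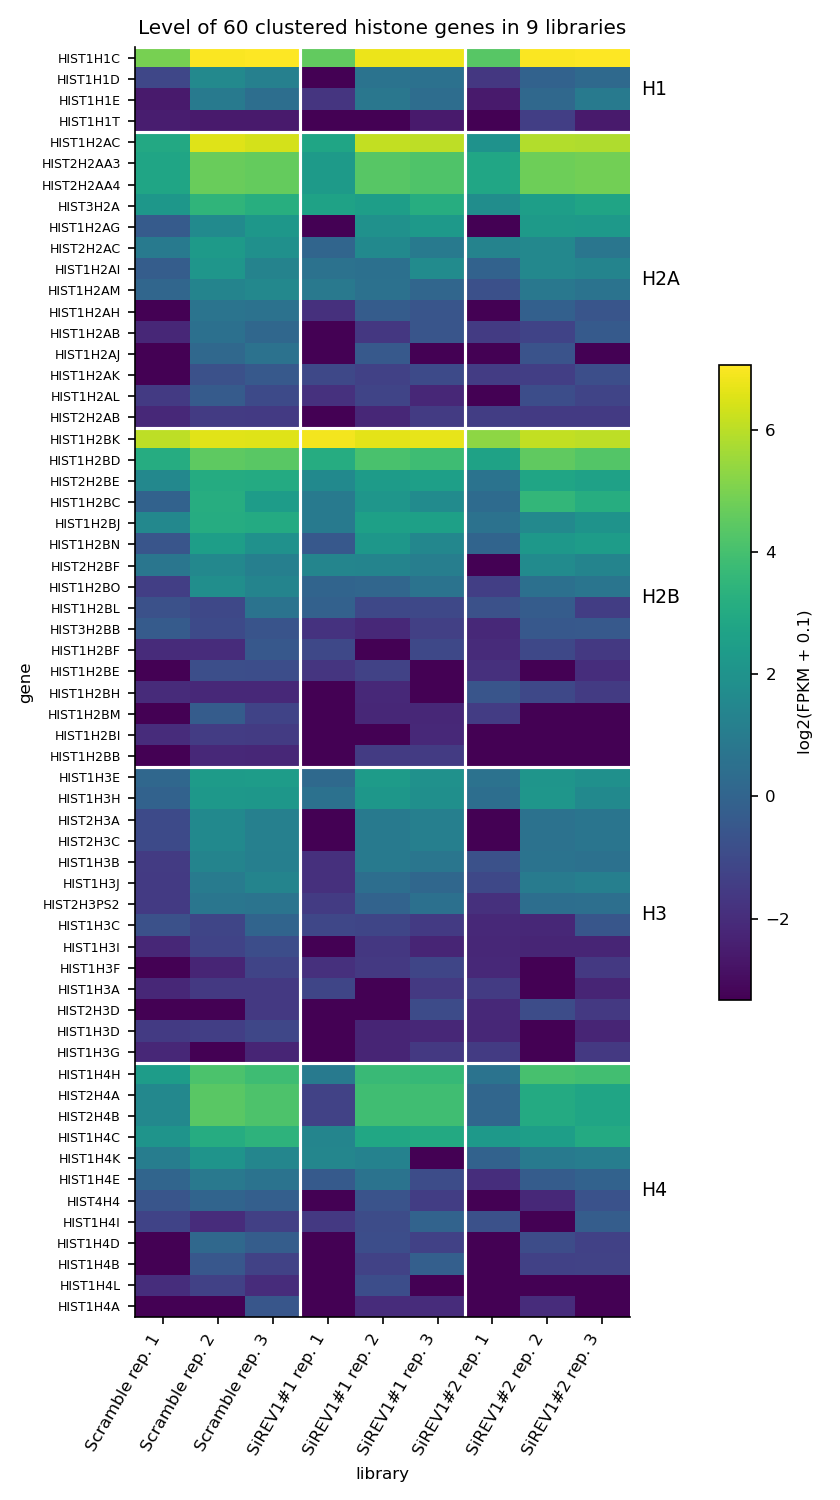
Level of each of the 60 histone genes (rows, by class and mean level) in each of the 9 libraries (columns), as log2(FPKM + 0.1). The columns of replicate 1 are darker than those of replicates 2 and 3 for most of the genes with a high level, whereas HIST1H2BK stays bright in all 9 columns.

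The linker histones were led by a single gene. HIST1H1C (H1.2; chr6:26055787-26056428, minus strand) was at 30.54, 129.81 and 132.47 FPKM in scramble replicates 1 to 3. After SiREV1#1 it was at 23.95, 107.61 and 110.35 FPKM, and after SiREV1#2 at 20.61, 127.79 and 133.93 FPKM. All 3 libraries of replicate 1 lay far below the other 6, while the 3 groups overlapped. HIST1H1D (H1.3) and HIST1H1E (H1.4) had means of 1.15 and 1.00 FPKM, and HIST1H1T, a testis linker histone, a mean of 0.0711 FPKM. The summed H1 level in replicate 1 was 23% of the mean of replicates 2 and 3 in scramble, 21.6% after SiREV1#1 and 15.7% after SiREV1#2.

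Among the H2A genes, HIST1H2AC (chr6:26124145-26139116, plus strand) had the widest range between libraries. It was at 7.63, 94.01 and 84.86 FPKM in scramble replicates 1 to 3, at 6.81, 68.94 and 65.30 FPKM after SiREV1#1 and at 3.82, 58.53 and 56.43 FPKM after SiREV1#2. Replicate 1 was again the lowest of each group, and within replicates 2 and 3 all scramble values lay above all siRNA values. HIST2H2AA3 and HIST2H2AA4, which carry the same values in every library, were at 6.79, 26.12 and 24.46 FPKM in scramble. They were at 4.90, 20.74 and 18.30 FPKM after SiREV1#1 and at 6.91, 27.43 and 29.19 FPKM after SiREV1#2. HIST3H2A, from the HIST3 cluster, was at 4.43, 11 and 9.07 FPKM in scramble, 6.26, 5.5 and 8.76 after SiREV1#1 and 3.31, 5.57 and 6.52 after SiREV1#2, and its replicate 1 overlapped the others after SiREV1#1. The other 10 H2A genes had means between 0.193 and 2.90 FPKM.

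HIST1H2BK, an H2B gene (chr6:27146418-27146798, minus strand), had another pattern of values. It was at 66.00, 95.83 and 92.90 FPKM in scramble, 116.39, 98.53 and 102.10 FPKM after SiREV1#1 and 38.88, 69.40 and 65.95 FPKM after SiREV1#2. Every SiREV1#1 library lay above every scramble library, and the scramble libraries of replicates 2 and 3 lay above every SiREV1#2 library. In replicate 1 it made up 38.9%, 57.8% and 34.4% of the summed level of all members in the 3 groups, against 14.9% to 22.96% in replicates 2 and 3. In the reference 74.1% of its 50-base words also occur in H2BFS, a gene listed at 0.18 FPKM in 1 library and at 0 in the others. HIST1H2BD was at 8.59, 22.21 and 21.26 FPKM in scramble, 8.50, 16.79 and 14.20 FPKM after SiREV1#1 and 6.28, 22.70 and 19.48 FPKM after SiREV1#2. HIST2H2BE was at 2.78, 8.19 and 7.98 FPKM in scramble, 2.95, 5.07 and 5.67 after SiREV1#1 and 1.47, 6.84 and 6.01 after SiREV1#2. For both genes replicate 1 was the lowest of each group. HIST1H2BC was at 0.87, 8.72 and 5.20 FPKM, then 1.86, 4.28 and 3.11 FPKM, then 1.13, 11.77 and 8.72 FPKM in the same order of groups, with SiREV1#2 the highest in replicates 2 and 3. The other 12 H2B genes had means between 0.0833 and 4.56 FPKM.

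The H3 genes were low. HIST1H3E, the highest, was at 1.00, 5.08 and 5.19 FPKM in scramble, 1.06, 5.11 and 3.77 FPKM after SiREV1#1 and 1.40, 4.12 and 3.57 FPKM after SiREV1#2. HIST1H3H was at 0.86, 4.61 and 4.38 FPKM, 1.38, 4.41 and 3.56 FPKM, and 1.24, 4.24 and 2.92 FPKM. In both, replicate 1 lay below all libraries of replicates 2 and 3, and the groups overlapped. HIST2H3A and HIST2H3C, again equal in every library, were at 0.40, 2.97 and 2.22 FPKM in scramble and at 0 in replicate 1 of both siRNAs. Summed over the 14 H3 genes, the level in scramble was 4.49, 22.87 and 22.72 FPKM.

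HIST2H4A and HIST2H4B, an H4 pair with equal values, were at 2.82, 21.30 and 17.73 FPKM in scramble. They were at 0.31, 14.77 and 14.78 FPKM after SiREV1#1 and at 0.98, 8 and 6.75 FPKM after SiREV1#2. Within each replicate number scramble was the highest, and in replicates 2 and 3 the SiREV1#2 libraries were the lowest. HIST1H4H was at 5.22, 17.46 and 14.24 FPKM in scramble, 1.78, 13.17 and 12.48 FPKM after SiREV1#1 and 1.44, 16.32 and 15.10 FPKM after SiREV1#2. HIST1H4C was at 4.08, 8.47 and 10.40 FPKM, 2.55, 7.27 and 7.80 FPKM, and 4.74, 5.51 and 8.04 FPKM. Replicate 1 was the lowest of each group in these genes as well.

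**Figure D2:**
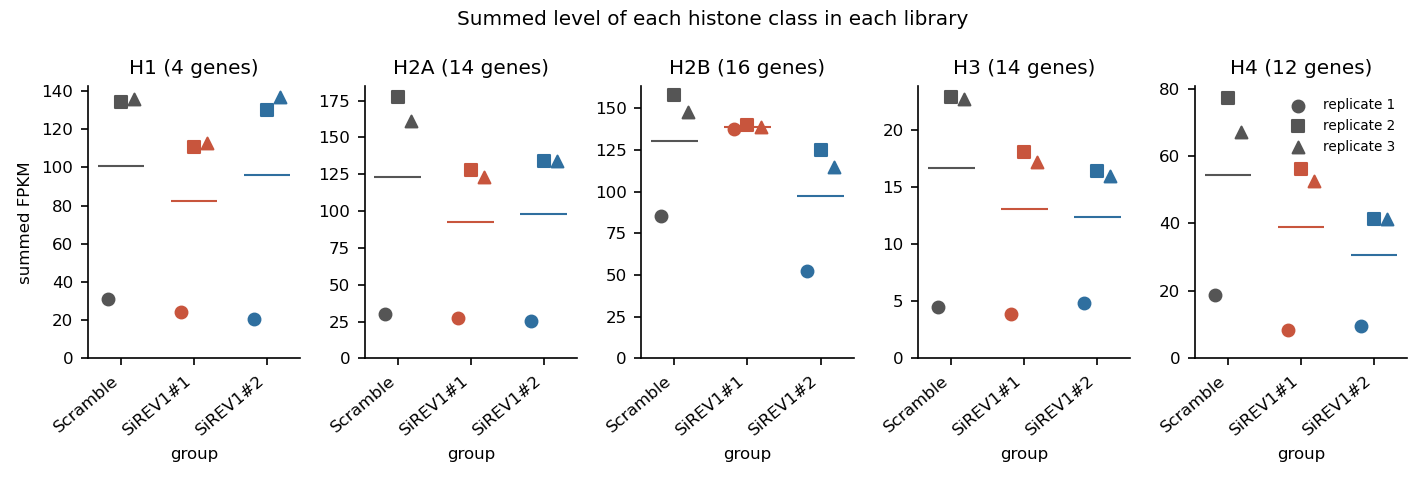
Summed FPKM of the genes of each histone class (panels) in each library, by group; markers stand for the replicate number and lines for the group mean of 3 libraries. Replicate 1 is the lowest point of each group, and for H2B after SiREV1#1 it is only just so, at 137.24 FPKM against 139.82 and 138.64 FPKM.

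In replicate 1 the histone genes were lower than in replicates 2 and 3, in the scramble cells and after both siRNAs. Of the 60 members, 29 (48.3%) were below both other replicates in each of the 3 groups by FPKM, and 0 were above both in each group. Over the 16967 genes with FPKM above 0 in at least 3 libraries, 29.9% were below in each group and 25.1% above. Replicate 1 was the lowest of scramble for 50 members, of SiREV1#1 for 39 and of SiREV1#2 for 42. The members that were below in each group numbered 3 of 4 in H1, 6 of 14 in H2A, 6 of 16 in H2B, 7 of 14 in H3 and 7 of 12 in H4. Several members were not detected in replicate 1 at all while above 0 in both other replicates, namely 9 in scramble, 15 after SiREV1#1 and 10 after SiREV1#2.

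On counts, with all 60 members in the fit, 30 were lower in replicate 1 and 0 higher, against 24.5% of 18044 genes called lower (edgeR's quasi-likelihood test with a term for group, Benjamini-Hochberg adjustment). In the fit on genes kept by a filter on low counts, 27 of the 32 members kept were lower, against 30.7% of 14205 genes called lower and 31.2% called higher. The 30 and the 27 each hold 3 pairs of genes with equal values, and each such pair is 1 measurement. A gene that passes such a filter through replicates 2 and 3 is bound to differ, so the share among the 32 says less than that among the 60. HIST1H2AC fell by 3.50 on the log2 scale (SE 0.16, adjusted p = 8.84e-07), HIST2H4A by 3.25 (SE 0.31, adjusted p = 2.96e-05), HIST1H1C by 2.21 (SE 0.13, adjusted p = 2.51e-06) and HIST2H2AA3 by 1.90 (SE 0.13, adjusted p = 6.68e-06). HIST1H4H fell by 2.34 (SE 0.31), HIST1H3E by 1.93 (SE 0.28), HIST1H3H by 1.83 (SE 0.28), HIST2H2BE by 1.41 (SE 0.23) and HIST1H2BD by 1.26 (SE 0.19). HIST1H2BK differed by −0.24 ± 0.19 (SE, adjusted p = 0.296), with 66.00 against 95.83 and 92.90 FPKM in scramble but 116.39 against 98.53 and 102.10 FPKM after SiREV1#1. HIST3H2A, at −0.64 ± 0.27 (adjusted p = 0.068), HIST2H2BF, HIST1H4K and HIST1H2AM did not pass either. HIST1H2AG, an H2A gene, had 6.02, 0 and 0 counts in replicate 1 of the 3 groups and 28.34 to 46.57 counts in the other libraries, and HIST1H2AH had 0, 1 and 0 counts against 5.04 to 13.65. Both passed, but their fitted differences rest on libraries at 0 counts and moved to −8.34 without scramble replicate 1 (HIST1H2AG) and to −6.34 without SiREV1#1 replicate 1 (HIST1H2AH). The median difference over all 60 members was −1.47, and −1.37 with the 5 members at 0 counts in every library of replicate 1 set to a floor of 3 counts over these libraries, against 0.02 over all genes. The replicate number is the only label that separates these libraries, and what differed between replicate 1 and the others was not tested.

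**Figure D3:**
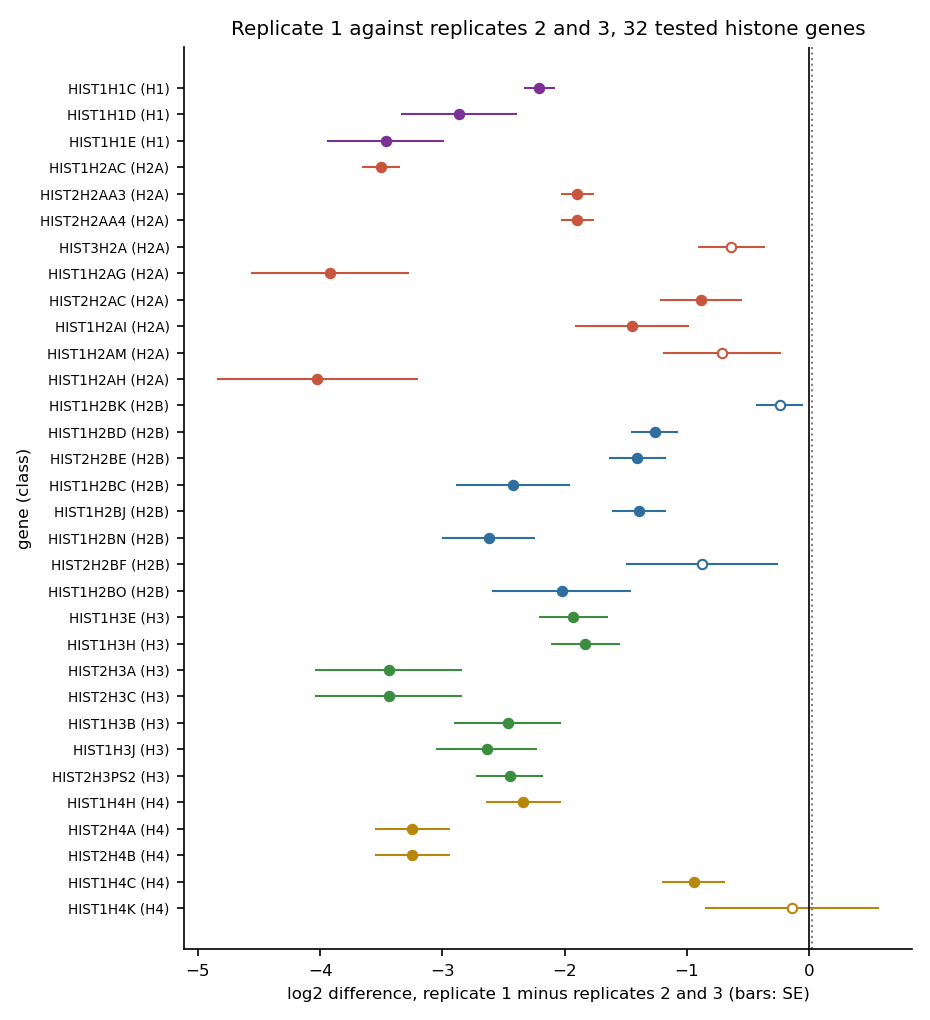
Log2 difference between replicate 1 and replicates 2 and 3 for the 32 histone genes kept by the filter. Bars are the approximate error worked back from the F test. Filled points passed an adjusted p of 0.05 and the dotted line is the median of all genes tested (0.02). All 32 points lie below 0, with HIST1H4K (−0.14) and HIST1H2BK (−0.24) the nearest to it, and the lowest points belong to genes with 0 counts in libraries of replicate 1.

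After SiREV1#1 no histone gene passed the test against scramble, and most were somewhat lower. By FPKM, 32 of the 60 members were lower and 21 higher in replicate 1, 47 lower and 9 higher in replicate 2, and 48 lower and 10 higher in replicate 3. The median log2 ratio over the 60 members was −0.22, −0.53 and −0.45 in the 3 pairs, against −0.17, −0.01 and 0.00 over all genes kept by the same rule. Of the members, 24 were lower in all 3 pairs, against 28.8% of 16967 genes, and 2 were higher in all 3. On counts, 0 of 32 members passed (0 of 60 without the filter), where 0.296% of 14205 genes did, and 0 had an unadjusted p under 0.05 by edgeR or DESeq2. For HIST1H1C the fitted log2 fold change was −0.24 ± 0.84 (SE, adjusted p = 0.998). For HIST1H2AC it was −0.37 ± 1.21 (adjusted p = 0.998). Both errors were set by the distance of replicate 1. With the replicate number as a block 0 of 32 members passed again, where 12.3% of the genes did, and the same values were −0.22 ± 0.15 (adjusted p = 0.37) and −0.30 ± 0.16 (adjusted p = 0.253). Without SiREV1#1 replicate 1, the library with the fewest counts, the fit with the block called 4 of 33 members (HIST1H2AC, HIST1H2BC, HIST1H2BD and HIST2H2BE), all lower. In that fit 24.3% of 14118 genes passed in either direction, 1855 of them as lower.

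Within replicates 2 and 3, where the spread was smaller, 10 of 36 members fell after SiREV1#1 and 0 rose, next to 23.9% of 14181 genes that fell. HIST2H2BE fell by 0.58 on the log2 scale (SE 0.10, adjusted p = 0.000407), HIST1H2BD by 0.47 (SE 0.11, adjusted p = 0.00289), HIST1H2AC by 0.40 (SE 0.08, adjusted p = 0.00155), HIST2H2AA3 by 0.35 (SE 0.11, adjusted p = 0.0205) and HIST1H1C by 0.25 (SE 0.06, adjusted p = 0.00612). The share of members called is close to that of all genes. With limma on log2(FPKM + 1) and the replicate number as a block, on all 9 libraries, 4 of 60 members fell (HIST2H2AA3, HIST2H2AA4, HIST1H2BI and HIST1H3D), against 7.63% of 16967 genes. HIST1H2BI and HIST1H3D had at most 0.36 FPKM in any library.

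After SiREV1#2 no histone gene passed against scramble either. By FPKM 27 of the 60 members were lower and 22 higher in replicate 1, 46 lower and 13 higher in replicate 2, and 42 lower and 14 higher in replicate 3. Of the members, 20 (33.3%) were lower in all 3 pairs, against 25.6% of 16967 genes, and 4 were higher in all 3. The median log2 ratio was 0.00, −0.70 and −0.49 in the 3 pairs, against −0.04, 0.00 and 0.00 over all genes. On counts 0 of 32 members passed, as did 0.0% of 14205 genes, with 0 members under an unadjusted p of 0.05 by edgeR and 1 by DESeq2. The H4 pair was the most changed by size among the abundant members. HIST2H4A was lower than in scramble by log2 ratios of −1.43, −1.40 and −1.38 in replicates 1 to 3, and its fitted log2 fold change was −1.62 ± 1.41 (SE, adjusted p = 1) without and −1.38 ± 0.38 (adjusted p = 0.119) with the replicate block. The unblocked value was −0.79 without SiREV1#2 replicate 1 and −3.88 without SiREV1#2 replicate 2. The summed H4 level was 50.9%, 53.6% and 61.7% of scramble in the 3 pairs (exact permutation p = 0.3, where 3 against 3 values cannot give less than 0.1). This sum counts the H4 pair under both names, although it is 1 measurement. The other abundant H4 genes had log2 ratios of −1.79, −0.10 and 0.08 (HIST1H4H) and 0.21, −0.61 and −0.37 (HIST1H4C).

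HIST1H2BJ, another H2B gene, was at 2.80, 8.51 and 7.96 FPKM in scramble and at 1.41, 2.86 and 3.93 FPKM after SiREV1#2, below scramble in each pair. Its log2 fold change was −1.54 ± 0.68 (adjusted p = 0.946) without and −1.28 ± 0.31 (adjusted p = 0.0798) with the block. HIST1H2AC was at −0.98 ± 1.40 (adjusted p = 1) and −0.78 ± 0.19 (adjusted p = 0.0878), and HIST1H2BK at −0.62 ± 0.31 (adjusted p = 1) and −0.63 ± 0.27 (adjusted p = 0.273), the former moving to −0.27 and −1.08 without SiREV1#2 replicate 1 or 2. With the block 0 of 32 members passed, where 1.91% of the genes did, and 6 had an unadjusted p under 0.05. Without SiREV1#1 replicate 1 the fit with the block called 5 of 33 as lower (HIST1H2AC, HIST1H2BJ, HIST1H2BK, HIST2H4A and HIST2H4B). In that fit 11.7% of the genes passed in either direction, 887 of 14118 as lower. In the fit of replicates 2 and 3 only, SiREV1#2 has 1 library with counts of its own, which is assumed to vary like the other groups, since these supply all of the spread. There 8 of 36 members passed as lower and 0 as higher, next to 18.6% of the genes as lower. They were HIST2H4A and HIST2H4B (−1.28 ± 0.21), HIST1H2BJ (−1.52 ± 0.28), HIST1H2AC (−0.61 ± 0.10), HIST1H2BK (−0.43 ± 0.08), HIST1H1D (−1.54 ± 0.42), HIST1H4C (−0.77 ± 0.27) and HIST3H2A (−0.86 ± 0.28). For HIST1H4C, SiREV1#2 replicate 3, which this fit lacks, was closer to scramble by FPKM. It was at 8.04 FPKM, against 5.51 in SiREV1#2 replicate 2 and 8.47 and 10.40 in scramble replicates 2 and 3. With limma on log2(FPKM + 1) and the block, 6 of 60 fell (HIST1H2AC, HIST1H2BI, HIST1H2BJ, HIST1H3D, HIST2H3A and HIST2H3C), against 3.98% of 16967 genes. Both siRNAs are set against the same scramble libraries, so their values are not independent of each other.

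**Figure D4:**
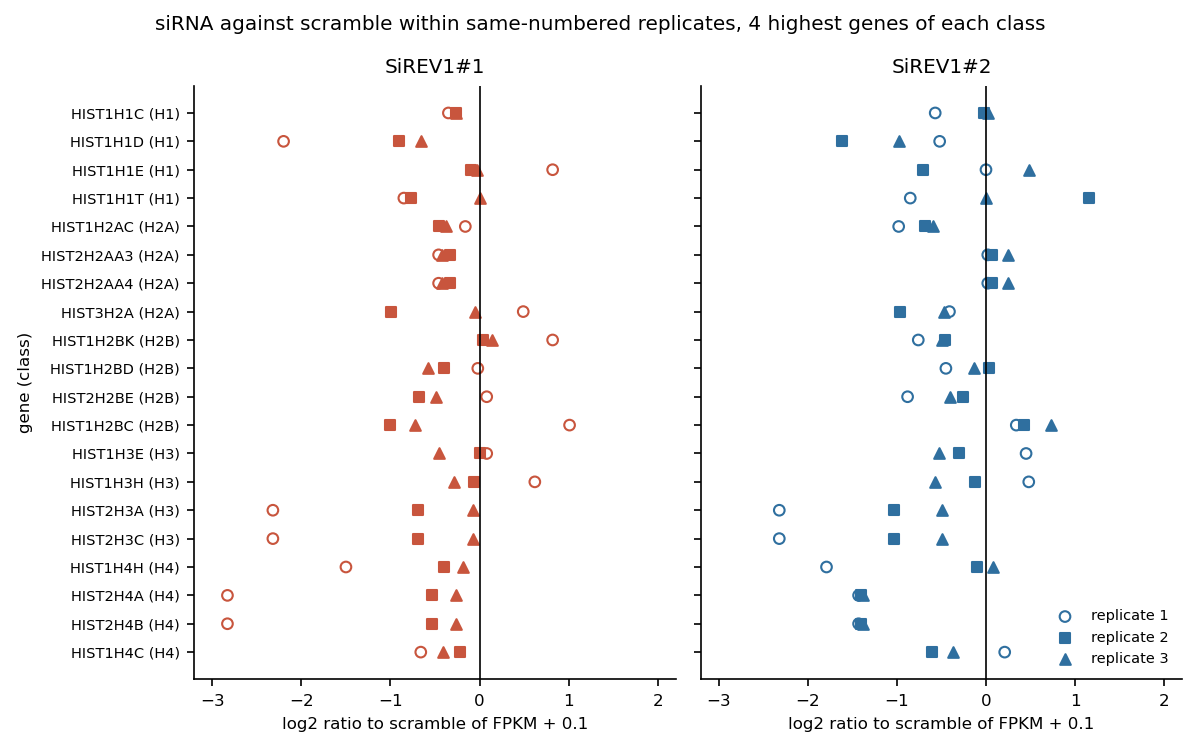
Log2 ratio of FPKM + 0.1 to the scramble library of the same number, for the 4 genes with the highest mean level in each class, after SiREV1#1 (left) and SiREV1#2 (right). HIST1H2BK lies above 0 in all 3 pairs after SiREV1#1 (0.82, 0.04 and 0.14 in replicates 1 to 3) and below 0 in all 3 after SiREV1#2. HIST2H4A lies between −1.43 and −1.38 after SiREV1#2.

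Set directly against each other, the siRNAs gave a call that depended on the fit for HIST1H2BK. Its level after SiREV1#1 was above that after SiREV1#2 in 3 of 3 pairs, the log2 difference was 1.03 ± 0.31 (SE, adjusted p = 0.215) without the replicate block and 1.07 ± 0.27 (adjusted p = 0.0334) with it, and it was the 1 member of 32 that passed with the block, where 17.6% of 14205 genes did. The call was lost (adjusted p = 0.0684 to 0.221) when scramble replicate 1, scramble replicate 2, SiREV1#2 replicate 1 or SiREV1#2 replicate 2 was left out, and the difference was 0.70 without SiREV1#2 replicate 1. Without SiREV1#1 replicate 1 the fit with the block called 4 of 33 members (HIST1H2BK, HIST2H4A and HIST2H4B higher after SiREV1#1, HIST1H2BC lower), where 28.5% of the genes passed. Without the block 0 of 32 members passed and 0.676% of the genes did, with 1 member under an unadjusted p of 0.05 by edgeR and 1 by DESeq2. Within replicates 2 and 3, where SiREV1#2 is again a lone library with the spread taken from the other groups, the difference of HIST1H2BK was 0.55 ± 0.08 (adjusted p = 0.00011), and 10 of 36 members passed, 4 higher and 6 lower after SiREV1#1, where 54.4% of the genes did. HIST1H2BC (−1.65 ± 0.31), HIST1H2BD (−0.52 ± 0.13), HIST2H2BE (−0.34 ± 0.12), HIST2H2AA3 (−0.48 ± 0.13) and HIST1H1C (−0.22 ± 0.08) were lower after SiREV1#1, and HIST1H2BJ (1.05 ± 0.29) and HIST2H4A (0.90 ± 0.22) higher.

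Without HIST1H2BK the summed histone level was 103.89, 474.03 and 441.62 FPKM in scramble, 85.04, 353.81 and 342.58 FPKM after SiREV1#1 and 74.10, 376.80 and 376.90 FPKM after SiREV1#2. It was thus 81.9%, 74.6% and 77.6% of scramble after SiREV1#1 and 71.3%, 79.5% and 85.3% after SiREV1#2. With HIST1H2BK included, the sum in replicate 1 after SiREV1#1 was 118.6% of scramble, so the direction of that pair rests on this gene. The exact permutation p over 3 against 3 sums was 0.5 for each siRNA without HIST1H2BK. Each sum lay below scramble in every pair, by less than the distance between replicate 1 and the others.

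The factors that make, cut and degrade histone transcripts gave calls in both directions. In replicate 1 SLBP was higher, at 26.76 FPKM against 9.91 and 9.71 in scramble, 17.88 against 9 and 8.73 after SiREV1#1 and 23.86 against 8.53 and 9.15 after SiREV1#2. Replicate 1 was the highest of each group, the opposite of the histone genes, and the log2 difference was 1.36 ± 0.10 (SE, adjusted p = 6.82e-06). Of 38 genes listed for histone mRNA transcription, processing and turnover, 10 were higher and 12 lower in replicate 1, with a median of −0.13, near the 31.2% and 30.7% of all genes. Among them CCNE2, the cyclin E2 that drives NPAT phosphorylation with CDK2, was higher by 2.14 ± 0.28, CDK2 by 1.28 ± 0.10 and SRRT (ARS2), which links the cap to 3′ end formation, by 2.11 ± 0.16. CCNE2 was low, at 1.85, 0.35 and 0.35 FPKM in scramble replicates 1 to 3. It was at 0.37, 0.18 and 0.11 FPKM after SiREV1#1 and at 1.60, 0.46 and 0.41 FPKM after SiREV1#2. ERI1 fell by 0.65 (SE 0.11) and ZNF473, a zinc finger protein of the U7 complex, by 0.73 (SE 0.25). NPAT (−0.15 ± 0.17), CASP8AP2 (−0.05 ± 0.13) and LSM11, a U7 subunit (−0.10 ± 0.14), did not pass.

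After the siRNAs, LSM11 stood out among these factors. It was at 1.22, 1.03 and 1.14 FPKM in scramble, 0.54, 0.77 and 0.73 FPKM after SiREV1#1 and 1.89, 2.26 and 2.25 FPKM after SiREV1#2. The 3 groups did not overlap. The difference between the siRNAs was −1.57 ± 0.23 (SE, adjusted p = 0.0382), the 1 call among the 38 genes in that comparison without the block, and it was lost when any 1 of the 8 libraries was left out (−1.68 to −1.45, adjusted p = 0.0521 to 0.23). With the replicate block, 5 of the 38 fell after SiREV1#1 and 0 rose, in a fit in which 12.3% of all genes passed, 988 of 14205 as lower. These 5 were LSM11 (−0.66 ± 0.18, adjusted p = 0.0476), ZNF473 (−1.21 ± 0.29), ERI1 (−0.96 ± 0.14), NCBP2, a subunit of the cap-binding complex (−0.53 ± 0.12), and CCNE2 (−1.81 ± 0.36). CCNE2 was at or under 1.85 FPKM in every library. After SiREV1#2 the block gave 2 that fell, NCBP1 (−0.88 ± 0.16) and TENT4B (−0.89 ± 0.16), and 0 that rose. In that fit 1.91% of all genes passed, 201 of 14205 as lower. Without the block 0 of the 38 passed after either siRNA. ERI1 was at 9.64, 14.16 and 15.31 FPKM in scramble, 5.85, 6.74 and 6.93 FPKM after SiREV1#1 and 8.67, 17.45 and 15.45 FPKM after SiREV1#2. ZNF473 was at 3.48, 6.38 and 6.05 FPKM, 2.08, 2.17 and 2.09 FPKM, and 3.15, 9.42 and 9.04 FPKM.

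Replication-independent and variant histone genes mostly give transcripts with poly(A) tails, although H2AFX is known to give a stem-loop form as well. Of 12 tested, 7 were lower in replicate 1 and 1 higher, with a median of −0.50, against 30.7% and 31.2% of all genes. H1F0, the H1 of resting and differentiated cells, was at 95.04, 533.31 and 532.92 FPKM in scramble, 66.84, 224.25 and 230.39 FPKM after SiREV1#1 and 89.62, 454.84 and 442.61 FPKM after SiREV1#2. Replicate 1 was the lowest of each group and the difference was −2.10 ± 0.18 (SE, adjusted p = 1.61e-05). H1FX fell by 1.87 (SE 0.10), H3F3B, which encodes H3.3, by 1.86 (SE 0.10), and H2AFJ by 1.43 (SE 0.12), whereas H2AFX, which encodes the damage-signalling H2A.X, was higher by 0.96 ± 0.11. After the siRNAs 0 of the 12 passed without the block. With it H1F0 (−0.91 ± 0.20, adjusted p = 0.0267) and CENPA, the centromeric H3 (−0.68 ± 0.15, adjusted p = 0.0267), fell after SiREV1#1, where 12.3% of all genes passed, 988 of 14205 as lower.

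Genes of S phase and of histone handling lay mostly on the other side in replicate 1. Of 18 S phase genes, 15 were higher and 0 lower, with a median of 1.12, against 31.2% of all genes called higher. PCNA and TK1, both among the 15, were not higher in replicate 1 after SiREV1#1. There PCNA was at 129.28 FPKM against 157.76 and 148.58 in replicates 2 and 3, and TK1 at 26.85 against 30.03 and 27.85. The rest of the 15 were highest in replicate 1 of each group. CDC6, which loads the replicative helicase, was higher by 1.88 ± 0.12 (SE), and MCM4, a subunit of that helicase, by 2.13 ± 0.18. Of 22 histone chaperones and import factors, 14 were higher and 2 lower, with a median of 0.47, against 31.2% and 30.7% of all genes. Among them the chaperones NASP (1.3 ± 0.12) and ASF1B (1.25 ± 0.12) were higher, while ASF1A fell by 0.83 (SE 0.12). Of 17 enzymes of poly(A) site choice and poly(A) tails, 6 were higher and 7 lower, with a median of −0.11, against 31.2% and 30.7% of all genes. They included the cleavage factor PCF11 (−1.48 ± 0.14) and the poly(A)-binding protein PABPC4 (1.46 ± 0.14). The part of these genes in the histone levels was not tested. After SiREV1#1, with the replicate block, 6 of the S phase genes fell and 0 rose, among them MCM4 (−1.03 ± 0.22), GINS2 (−0.81 ± 0.16) and CDC6 (−0.73 ± 0.15). In the same fit 5 chaperones fell, led by RBBP4 (−1.76 ± 0.15), where 12.3% of all genes passed, 988 of 14205 as lower. After SiREV1#2 with the block 0 of the S phase genes passed and 1 chaperone fell, CHAF1A (−1.47 ± 0.18), where 1.91% of all genes passed, 201 of 14205 as lower. Without the block 0 genes of both lists passed after either siRNA.

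**Figure D5:**
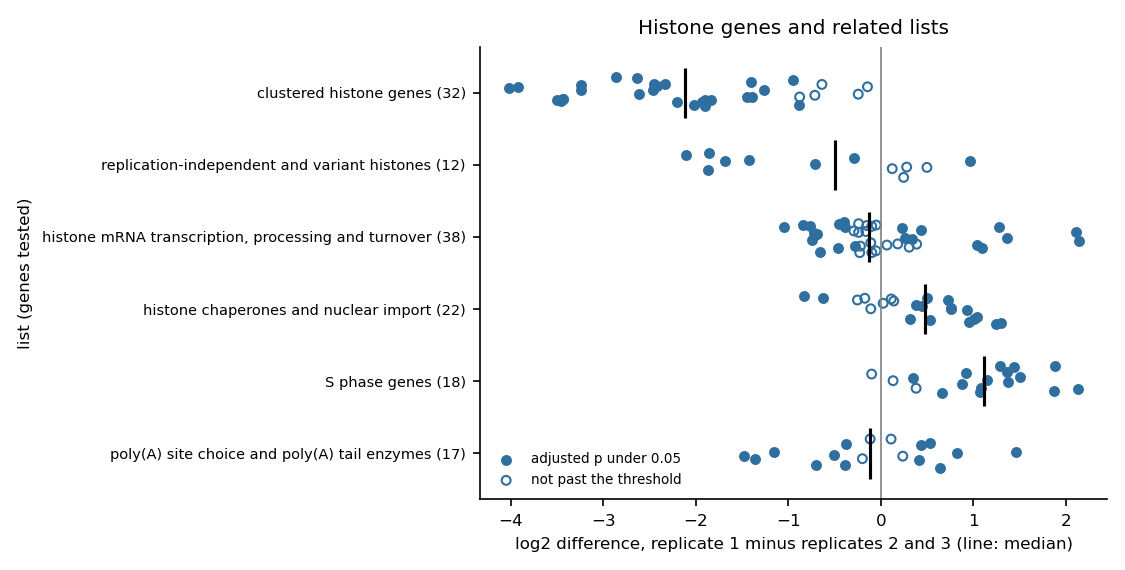
Log2 difference between replicate 1 and replicates 2 and 3 for each gene tested (points; filled where the adjusted p was under 0.05), by list, with the median of each list as a line; vertical scatter is only for legibility. The medians run from −2.12 for the 32 clustered histone genes kept by the filter (−1.47 over all 60 without it) to 1.12 for the S phase genes.

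Counts of single histone genes are uncertain where genes share sequence. In GENCODE release 29, 14 of the 60 members have over 50% of their 50-base words in transcripts of another gene, and 21 share none. The 3 pairs HIST2H2AA3 and HIST2H2AA4, HIST2H3A and HIST2H3C, and HIST2H4A and HIST2H4B carry equal values and are each 1 measurement listed under 2 names. Counts of members given here include both names of a pair. The exons of 14 members overlap those of another annotated gene, among them HIST1H2AM with HIST1H3J, HIST2H4A with HIST2H3C and HIST1H2BN with HIST1H2AK, and whether counting used the strand is not given in the sources used here. HIST1H1C, HIST1H4H and HIST1H4C share no such word with another gene, and HIST1H2AC shares 0.4%.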

How the data were processed

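The authors deposited FPKM values per gene and library. Beside them the authors deposited estimated counts, of which 42.6% are not whole. The submitters' processing notes name StringTie 1.3.3b and hg38; an aligner and a strand setting are not given in the sources used here. For SiREV1#2 replicate 3 the deposited counts are those of replicate 2 again (100.0% of genes equal) and were left out.

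Counts were rounded and tested with edgeR 4.0.16 (R 4.3.3; TMM, filterByExpr, quasi-likelihood F test, 1 fit of 3 groups, Benjamini-Hochberg over all genes tested, threshold 0.05). The replicate comparison added a term for replicate 1. Alternatives were DESeq2 1.42.0, limma 3.58.1 on log2(FPKM + 1) and log2(FPKM + 0.1), other filters, other size factors, the count columns as deposited, replicates 2 and 3 only, a replicate block and leaving out each library. Log2 ratios of single libraries used a pseudocount of 0.1. The fits were checked on simulated counts with planted changes. These were drawn at a spread near that of the blocked fit and without a shift of replicate 1. The check therefore does not show the power of the tests between groups without the block. Libraries held 13059082 to 20166451 counts. The errors of edgeR values, marked SE or ±, are approximate. They were worked back from each log2 value and its F test, and were not standard errors taken from the fit. Near a difference of 0 they are unstable, as for HIST1H2AH between the siRNAs with the replicate block (−0.013 ± 1.464). Tables and figures were made with Python 3.11.15, pandas 2.3.3 and matplotlib 3.10.9.

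Same-numbered libraries deviated together from their group means (r = 0.734 to 0.929 over 11429 genes), as did replicate 2 of a group with replicate 3 of another (0.751 to 0.914), so the block mostly carries the shift of replicate 1. The coefficient of biological variation was 0.412 without and 0.161 with it.

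The members and the lists were chosen with earlier results of these data known. Named genes are REV1, the 4 members of each class with the highest mean FPKM, up to 6 members per comparison and direction past the threshold, members at the edge of the rule, SLBP, NPAT, CASP8AP2, LSM11, ZNF473 and ERI1, and up to 6 called genes per list. Members outside this rule, such as HIST1H2BJ and HIST1H4K, were named after their values were seen. A list of RNAs without poly(A) tails was not analysed here.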

Additional observations from a re-analysis of the deposited data

Results flagged for a closer look

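The siRNAs differed in HIST1H2BK in a test of the difference itself with the replicate block, with a log2 difference of 1.07 between SiREV1#1 and SiREV1#2 (edgeR, adjusted p = 0.0334), and the gene was above scramble in 3 of 3 pairs after SiREV1#1 and below in 3 of 3 after SiREV1#2. That fit called 17.6% of all genes. HIST1H2BK did not pass without the block, and its call with the block was lost when certain single libraries were left out. Its log2 ratios to scramble in replicates 1 to 3 were 0.82, 0.04 and 0.14 after SiREV1#1, and −0.76, −0.46 and −0.49 after SiREV1#2. Against scramble HIST1H2BK did not pass with the block (edgeR), at 0.44 ± 0.23 (adjusted p = 0.25) after SiREV1#1 and −0.63 ± 0.27 (adjusted p = 0.273) after SiREV1#2. LSM11 differed by −1.57 (adjusted p = 0.0382 without and 0.00304 with the block), with the siRNAs on opposite sides of scramble in every pair. With the block, ZNF473 differed by −1.43 (adjusted p = 0.0237) and ERI1 by −1.02 (adjusted p = 0.00648). HIST2H2AA3 and HIST2H2AA4 lay below scramble in every pair after SiREV1#1 and above in every pair after SiREV1#2, with a log2 difference of −0.20 that did not pass the test (adjusted p = 0.975). For HIST2H2AA3 it was −0.41 with the replicate block (adjusted p = 0.158) and −0.48 in replicates 2 and 3 (adjusted p = 0.0092, SiREV1#2 being a lone library), and both genes passed with limma and the block.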

How the results depend on the processing

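Calls between the groups stayed at 0 of the histone genes under each alternative with all libraries or without replicate 1 as a whole, except the following. For SiREV1#1 against scramble, 4 passed with limma on log2(FPKM + 1) and the replicate block and 10 in replicates 2 and 3 only; for SiREV1#2 these numbers were 6 and 8. Between the siRNAs, 1 passed with edgeR and the replicate block, 1 (HIST1H2BH) with limma on log2(FPKM + 1), with or without the filter, and on log2(FPKM + 0.1), 6 with limma and the replicate block and 10 in replicates 2 and 3 only. For replicate 1, 8 passed (of 10 tested) where 10 counts in every library were asked for, in the fit or among the members, instead of 27.

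The median log2 fold change after SiREV1#2 (−0.61) was −0.21 with limma on log2(FPKM + 1), with or without the filter and with the replicate block. Between the siRNAs (0.31) it was 0.03 with the replicate block by edgeR or limma, 0.03 and 0.07 with limma at pseudocounts of 1 and 0.1, 0.03 with limma without the filter, 0.21 with 10 counts in every library, 0.12 on the deposited columns, −0.18 in replicates 2 and 3, 0.22 over members above 0 in all libraries and 0.20 over members with 10 counts. For replicate 1 (−2.12) it was −1.47 without the filter, −1.39 and −1.40 with 10 counts, −0.58 with limma on log2(FPKM + 1), with or without the filter, −1.32 on log2(FPKM + 0.1) and −1.93 over members above 0 in all libraries. The cause was not tested.

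Leaving out 1 library gave, without the replicate block, 0 calls in each comparison of groups, medians from −0.80 to 0.03 (SiREV1#1), −2.07 to −0.13 (SiREV1#2) and −0.30 to 1.59 (between the siRNAs), and for replicate 1 from 23 to 29 calls with medians from −2.22 to −1.89. The median for SiREV1#1 was 0.03 without SiREV1#1 replicate 1, and that between the siRNAs was −0.30 without SiREV1#2 replicate 1. After SiREV1#1, HIST1H1C ranged from −0.66 to 0.17 and HIST1H2AC from −0.90 to 0.12. The calls of REV1 after SiREV1#1 and of LSM11 between the siRNAs were lost without any 1 library (−1.34 to −1.20 and −1.68 to −1.45), and both passed with the replicate block. With the replicate block, leaving out SiREV1#1 replicate 1 gave 4 calls for SiREV1#1, 5 for SiREV1#2 and 4 between the siRNAs, and leaving out each other library gave 0, 0 and at most 1 (HIST1H2BK). HIST1H2BK between the siRNAs with the block ranged from 0.63 to 1.47 when 1 library was left out, alternatives chosen after the data were seen, as were the sums without that gene and the median at the floor.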
